A study of Rattus norvegicus with 14 samples.

Results

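Solute carriers are membrane proteins that move small molecules and ions across the plasma membrane or the membranes of organelles, and their genes carry the symbol Slc followed by a family number. The members described here, selected on their symbol and their measured signal, were the probe sets of fetal rat gonad arrays whose only platform symbol had the form Slc, a number, the letter a and a number. Slc2a1, Slc2a3, Slc16a3 and Slc4a1 were left out by name, and the deposited signal had to average at least 50 intensity units in at least 1 of 7 groups. This gave 139 probe sets of 124 genes, out of 260 probe sets of 211 genes with such symbols and 15866 probe sets tested in all. The signal minimum used the measured levels, so the levels below are descriptions. Each comparison between groups was fitted on all 15866 probe sets, and counts are also given for all 260 probe sets, without the minimum.

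The samples were 14 single-channel Affymetrix rat arrays hybridised with biotin-labelled RNA, 2 for each of 7 groups. Testes and ovaries were dissected on embryonic day 13, 14 or 16, written E13, E14 and E16 below, and a further group of E13 testes was kept for 3 days on filters over CMRL medium with insulin, transferrin and albumin before extraction. Each RNA sample was 1 of 2 independent pools of 20 to 40 gonads, and the labels name no strain, genotype or drug treatment. The cultured testes have a fresh counterpart of the same starting age (E13) and one of the same elapsed age (E16).

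Among solute carriers, sugar carriers of families 2, 37 and 50 move hexoses or their phosphates, and families 1, 6, 7 and 38 carry amino acids or related compounds. Families 4, 9, 12 and 26 set cell pH, volume and chloride. Families 11, 30, 31, 39, 40 and 41 handle iron, zinc, copper and magnesium. Most of family 25 lies in the inner mitochondrial membrane and exchanges ADP for ATP, phosphate, and metabolites of the citric acid and urea cycles. The whole family is counted below as mitochondrial carriers. In the gonad, solute carriers are best known for feeding germ cells through their supporting cells, lactate being the classical fuel passed from Sertoli cells.

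The members that passed the tests below as lower in testis, at E16 or for the mean over ages, belonged to Slc4a4, Slc2a5, Slc40a1 and Slc7a1. Slc7a1 passed only for the mean, and most of these calls were lost under some alternative fits. The 250 bases before their RefSeq transcription starts (assembly GRCr8, written 5′ to 3′ on the strand of the gene) are shown to compare promoters of genes called in the same direction. Capitals mark matches to 7 motifs searched on both strands: GTAAACA for FOX factors, AGATAA for the GATA family, CTTTGAT for TCF and LEF factors, CAAGGTCA for NR5A1, TGACNNNGC for the antioxidant response element, GGGCGG for the GC box and TATAAA for the TATA box.
Slc4a4, bicarbonate cotransporter, chr14:19468283-19468532, minus strand: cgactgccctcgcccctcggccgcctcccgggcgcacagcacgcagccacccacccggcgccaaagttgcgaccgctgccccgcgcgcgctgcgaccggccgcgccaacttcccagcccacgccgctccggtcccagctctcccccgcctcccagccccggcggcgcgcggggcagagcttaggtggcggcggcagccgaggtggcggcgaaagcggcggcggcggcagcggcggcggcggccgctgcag
Slc2a5, fructose carrier, chr5:165865929-165866178, plus strand: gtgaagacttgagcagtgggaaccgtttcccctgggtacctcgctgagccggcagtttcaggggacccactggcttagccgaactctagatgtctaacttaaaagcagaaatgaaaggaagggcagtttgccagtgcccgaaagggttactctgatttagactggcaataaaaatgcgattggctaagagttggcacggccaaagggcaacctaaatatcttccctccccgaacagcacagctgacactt
Slc40a1, iron exporter, chr9:55543461-55543710, minus strand: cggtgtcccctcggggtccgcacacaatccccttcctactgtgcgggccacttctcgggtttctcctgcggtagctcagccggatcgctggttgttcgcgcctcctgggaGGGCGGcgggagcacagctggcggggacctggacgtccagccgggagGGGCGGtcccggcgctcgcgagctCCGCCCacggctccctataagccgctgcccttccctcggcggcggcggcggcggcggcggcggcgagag
Slc7a1, arginine and lysine carrier, chr12:11664238-11664487, plus strand: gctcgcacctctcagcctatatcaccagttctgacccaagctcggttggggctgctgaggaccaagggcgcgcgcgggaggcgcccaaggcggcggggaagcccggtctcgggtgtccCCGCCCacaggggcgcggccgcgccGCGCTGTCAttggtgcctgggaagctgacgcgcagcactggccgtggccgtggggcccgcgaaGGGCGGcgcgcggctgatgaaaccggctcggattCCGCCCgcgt
Slc40a1 and Slc7a1 each held 3 GC boxes in these windows, and Slc7a1 also held 1 match to the antioxidant response element on the reverse strand, 107 to 99 bases before the start. The windows of Slc4a4 and Slc2a5 held none of the 7 motifs. GC boxes were found in 62.7% of 118 windows of member genes and in 30.5% of all 33469 windows. The Slc4a4 window was 80.8% G and C and that of Slc2a5 50.8%. Of the 124 member genes, 107 had a window, and a match is a match of letters only.

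Array quality bears on all counts below. Array medians lay between 59.5 and 69.1. Actin probe sets gave a high ratio of 3′ to 5′ signal in replicate 1 of E16 ovary (3.34) and replicate 2 of cultured testis (2.97), where the remaining arrays had 1.47 to 2.13. Xist, an RNA of the inactive X chromosome, went against the labelled sex in 4 arrays, which were replicate 1 of E13, E14 and cultured testis and replicate 2 of E16 ovary. Sry, the testis-determining gene, read 162.8 and 184.9 in the 2 E13 testis arrays. Amh and the other Sertoli cell markers summed to 2870 to 2905 in E16 testis and 624 to 685 in E16 ovary, and the Leydig cell list to 4002 to 7844 and 75 to 154. Of the 5 germ cell markers, only Kit could be measured. The array names in the labels fell into 3 series by how they begin, which mixed the groups unevenly, and into 8 batches by how they end. Whether either matches hybridisation is not stated in the labels. Series 2 held only testis arrays, replicate 1 of cultured, E14 and E16 testis. Series 3 held both E13 ovary arrays, replicate 1 of E14 and E16 ovary, and 1 testis array, E13 replicate 1. Sex was thus partly confounded with series. The sex difference at E16 has 1 array of each sex within series 1. Its ovary array there is replicate 2, 1 of the 4 with discordant Xist, so every E16 difference within series 1 uses that array.

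Most solute carrier probe sets gave low signals. Over all 14 arrays the median member averaged 82.6 intensity units (range 20.9 to 2118.5), 86 of 139 averaged under 100 and 3 averaged at least 500. All 3 were mitochondrial carriers. Slc25a4, an ADP/ATP exchanger, read 1617.5 at the lowest, 2146.6 at the median and 2402.1 at the highest array. Slc25a3, the mitochondrial phosphate carrier, ran from 1510.0 through 1738.4 to 2089.9, and Slc25a5, another ADP/ATP exchanger, from 802.7 through 1402.6 to 2154.9. Signal served to choose which members are described and does not rank transcripts between genes, since each probe set has its own probes.

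Group means spread about as far as those of other probe sets. On the log2(intensity + 16) scale, on which every log2 value here is given and which understates the change of dim probe sets, the median range over the 7 group means was 0.61 for the members and 0.58 for the 10508 probe sets that met the same signal minimum. A range of at least 1 was found in 16 members (11.5%) and in 14.6% of those probe sets. The median SD between the 2 arrays of a group was 0.23 log2 for the members and 0.24 for the same background. Just inside the minimum stood Slc25a48 (50.2), Slc35a2 (51.4) and Slc7a3 (51.8), and just outside stood Slc26a1 (49.9), a second Slc29a3 probe set (49.2) and Slc23a1 (48.8). No probe set of families 13, 17, 19, 28, 32, 34 or 36 reached it.

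**Figure D1:**
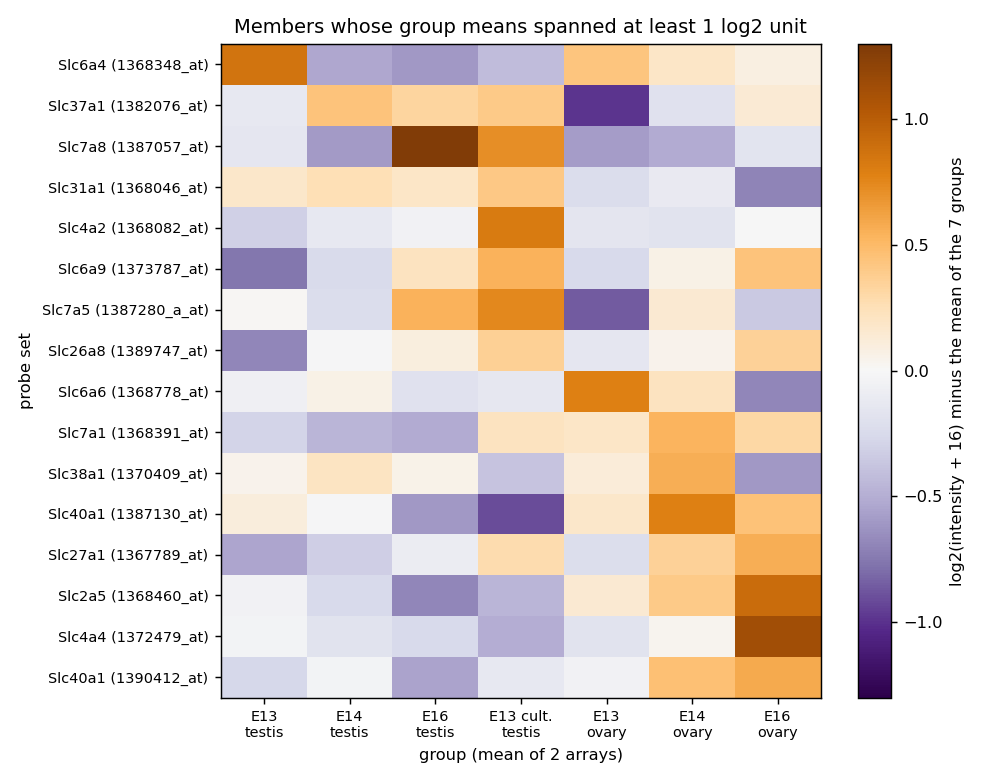
Mean log2(intensity + 16) of the 2 arrays of each group (columns) minus the mean of the 7 groups, for the 16 members (rows) whose group means spanned at least 1 log2 unit. Orange is above and purple below the mean of the groups: Slc2a5, Slc4a4 and Slc40a1 1390412_at are highest in E16 ovary, and Slc7a8 in E16 testis.

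Testis and ovary were compared at each age to find which carriers differ as the gonad takes its sex. At E13 no member passed the test (limma with Benjamini-Hochberg adjustment over all probe sets, adjusted p under 0.05), against 0.0126% of all probe sets. At an unadjusted p under 0.05 there were 9 members (6.47%, against 7.79% of all probe sets). At E14 again 0 members passed by limma, against 0.139% of all probe sets, and 11 had an unadjusted p under 0.05 (7.91%, against 8.0%). At E16, 3 members passed, all lower in testis (2.16% of the members, against 0.725% of all probe sets in that direction and 1.74% in either). Unadjusted, 24 members were under 0.05 at E16 (17.3%, against 13%). For the mean difference over the 3 ages, 4 members passed, all lower in testis (2.88%, against 1.03% of all probe sets in that direction and 2.31% in either), and 32 had an unadjusted p under 0.05 (23%, against 20%). Without the signal minimum, 5 of 260 probe sets passed at E16, 3 lower and 2 higher in testis (1.92%, against 1.74%), and 5 for the mean over ages, 4 lower and 1 higher (1.92%, against 2.31%). Unadjusted, the shares of the 260 were 8.85% at E13, 7.69% at E14, 13.5% at E16 and 18.1% over the ages.

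Slc4a4 encodes an electrogenic sodium bicarbonate cotransporter that moves bicarbonate with sodium across the membrane. Its probe set 1372479_at read 44.4 and 49.4 in E16 testis and 136.4 and 158.9 in E16 ovary. In the other 10 arrays it read 31.7 to 65.3, so both E16 ovary arrays lay above all other arrays. The difference at E16 was -1.38 (SE 0.17, adjusted p = 0.00312 by limma), between means of 46.9 ± 3.5 in testis and 147.6 ± 15.9 in ovary (SD, n = 2). At E13 the difference was 0.14 and at E14 -0.22, neither past the threshold. The call at E16 held in all 14 fits that left out 1 array. Within array series 1, where the only ovary array is replicate 2 with discordant Xist, the difference was -1.42. Leaving out the 4 arrays with discordant Xist gave -1.28 (adjusted p = 0.0959), and without the 2 arrays with a high actin ratio -1.48 (adjusted p = 0.0155). A second Slc4a4 probe set, 1369756_a_at, lay between 5.4 and 16.9 in all arrays, below the minimum.

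Slc2a5 encodes GLUT5, a facilitative carrier of fructose. It read 66.5 and 72.3 in E16 testis against 185.4 and 314.2 in E16 ovary. At E14 it read 109.5 and 88.8 in testis against 163.4 and 169.2 in ovary, and at E13 131.2 and 104.9 against 135.6 and 137.0. At each of the 3 ages both testis arrays lay below both ovary arrays, by a margin that was narrow at E13. The E16 difference was -1.60 (SE 0.23, adjusted p = 0.00616 by limma) and the mean over the ages was -0.82 (SE 0.13, adjusted p = 0.00932). The E14 difference of -0.67 did not pass (adjusted p = 0.499). The call at E16 was lost without E16 testis replicate 1 (adjusted p = 0.0523) or replicate 2 (adjusted p = 0.0559). It was also lost without the 4 arrays with discordant Xist, at -1.24 (adjusted p = 0.0927), where the mean over ages was -0.79 (adjusted p = 0.0546). Without the arrays of high actin ratio the E16 difference was -1.95 (adjusted p = 0.00625). Within series 1, with 1 of those 4 Xist arrays as its ovary array, it was -1.90.

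Slc40a1 encodes ferroportin, the exporter of iron from cells, and had 2 member probe sets. The first, 1390412_at, read 94.8 and 68.6 in E16 testis and 158.2 and 244.6 in E16 ovary, and 121.2 and 123.9 against 154.3 and 209.7 at E14. At E13 the testis arrays (97.0 and 107.0) also lay below the ovary arrays (135.5 and 109.1). The difference was -1.14 at E16 (SE 0.23, adjusted p = 0.0365 by limma) and -0.62 over the ages (SE 0.13, adjusted p = 0.0375). The second, 1387130_at, differed by -1.05 at E16 (SE 0.57, adjusted p = 0.479). Its replicates lay far apart, at 119.8 and 36.4 in E16 testis and 123.2 and 17.6 in cultured testis. The E16 call for 1390412_at was lost in 9 of 14 fits without 1 array, namely any array of E13 testis, E14 testis, E16 testis or E13 ovary, or E16 ovary replicate 2, with adjusted p from 0.0543 to 0.267. Without the 4 arrays with discordant Xist the difference was -0.85 (adjusted p = 0.266), without those of high actin ratio -1.43 (adjusted p = 0.0462), and within series 1 -1.62. With an offset of 1 in place of 16 it did not pass (-1.28, adjusted p = 0.071).

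Ferroportin is well known from macrophages, which recycle iron from red cells, and lists of both cell types were summed beside it. All 8 macrophage markers were measured, 5 of them at a mean of at least 50, and their sum ran from 457 to 478 in E16 testis and from 488 to 552 in E16 ovary. For the red cell list, with 6 of 10 measured, the ranges were 10845 to 12843 and 7161 to 10416. Endothelial markers, 4 of 6 measured, summed to 435 to 478 and 530 to 595. Whether these cells had a part in the result was not tested. In bulk RNA, fewer cells of a type and less RNA per cell cannot be told apart.

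Slc7a1 encodes CAT1, a uniporter of the cationic amino acids arginine and lysine. Its probe set 1368391_at read 92.5 and 64.4 in testis and 125.1 and 103.1 in ovary at E13, 75.1 and 59.7 against 175.4 and 127.4 at E14, and 68.6 and 59.9 against 149.2 and 105.5 at E16. The fresh testis arrays did not overlap the ovary arrays at any age, while of the cultured testis arrays (95.7 and 142.6) the higher lay within the ovary range and the lower between the ranges of the sexes. Only the mean over ages passed, at -0.76 (SE 0.15, adjusted p = 0.0213 by limma). The single ages gave -0.47, -1.0 and -0.82, none of which passed. A further Slc7a1 probe set, 1387167_at, lay below the signal minimum, and its differences between the sexes are not given here. The other member probe set, 1368392_at, gave -0.30 over the ages (adjusted p = 0.301), with overlapping arrays at E16 (101.9 and 60.1 in testis, 113.4 and 74.0 in ovary). The call was lost in 7 of 14 fits without 1 array, with adjusted p from 0.0534 to 0.0757. The arrays were replicate 2 of each fresh testis group, both E13 ovary arrays, E14 ovary replicate 1 and E16 ovary replicate 1. The arrays with high actin ratio (adjusted p = 0.0531 without them) and those with discordant Xist (adjusted p = 0.0692 without them) had the same effect. With array series as a block the difference was -0.54 (adjusted p = 0.142).

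Slc4a4 and Slc40a1 also passed as a mean over the ages. For Slc4a4 the mean difference was -0.48 (SE 0.10, adjusted p = 0.0299 by limma), which rested on E16. It did not pass in 10 of 14 fits without 1 array, with adjusted p from 0.0509 to 0.0992. Those 10 left out an array of E14 testis, E16 testis, E13 ovary or E16 ovary, E13 testis replicate 2 or E14 ovary replicate 1. For Slc40a1 1390412_at it did not pass in 8 of 14 fits (adjusted p from 0.0573 to 0.121). Those 8 left out an array of E13 testis, E14 testis or E13 ovary, E16 testis replicate 2 or E16 ovary replicate 2. Without the 4 arrays with discordant Xist the means were -0.50 for each gene (adjusted p = 0.118 and 0.161). The Slc4a4 mean also did not pass with an offset of 1 in place of 16 (adjusted p = 0.053), with array series as a block (0.117) or without the arrays of high actin ratio (0.0503). The Slc40a1 mean did not pass with an offset of 1 (adjusted p = 0.0639) or quantile normalization (0.0583).

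**Figure D2:**
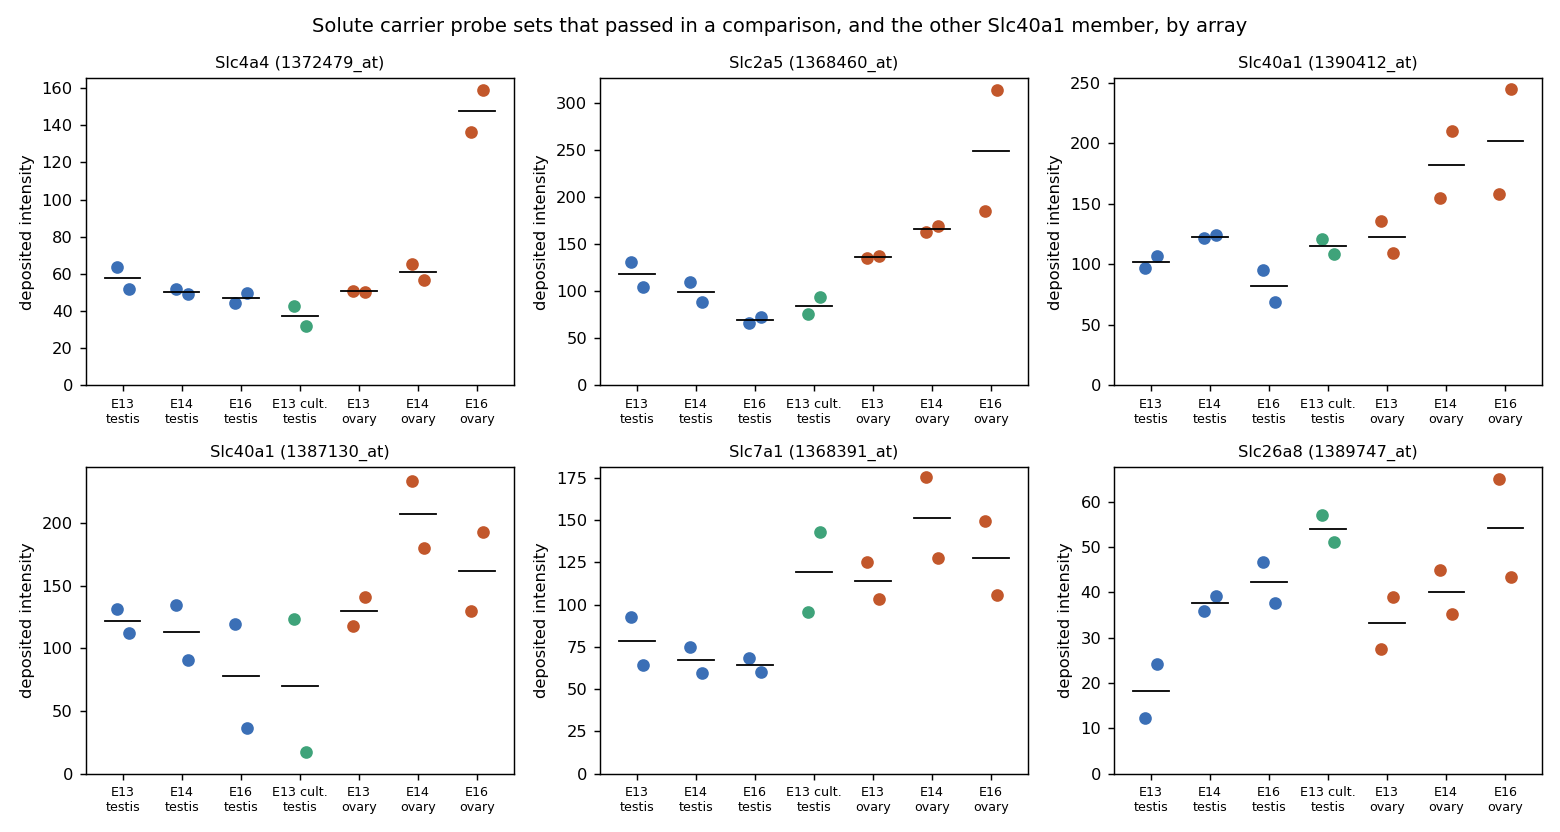
Deposited intensity of each array (points) and the mean of the 2 arrays (horizontal lines) in the 7 groups, for the 5 members that passed in a comparison and the other Slc40a1 member; each panel has its own vertical axis from 0. Slc4a4 stands at 136.4 and 158.9 in E16 ovary and at 65.3 or less elsewhere, and the Slc40a1 probe set 1387130_at has replicates far apart in cultured and E16 testis.

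Among probe sets below the signal minimum, Slc30a1 and Slc15a1 were higher in E16 testis; they are named because they passed, after their values were seen. Slc30a1, a zinc exporter of the plasma membrane, read 45.8 and 41.6 in E16 testis and 16.4 and 16.8 in E16 ovary (log2 0.87, SE 0.16, adjusted p = 0.0189 by limma). In all 3 fresh testis groups its arrays (31.6 to 45.8) lay above all ovary arrays (16.4 to 28.7), and the mean over ages was 0.52 (adjusted p = 0.0149). Slc15a1, a proton-coupled carrier of small peptides, read 32.6 and 38.5 against 6.2 and 5.3 (log2 1.24, SE 0.20, adjusted p = 0.0105). Both calls at E16 were lost without any array of E16 testis or E16 ovary (adjusted p from 0.0516 to 0.138), without the Xist arrays (0.152 for Slc30a1 and 0.104 for Slc15a1) and without the actin arrays (0.112 and 0.064). With array series as a block Slc30a1 had an adjusted p of 0.0512. Its mean over ages did not pass without either E13 ovary array (0.0622 and 0.051), without the Xist (0.113) or actin arrays (0.0543), or with the series block (0.0891).

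Other amino acid carriers showed wide ranges that did not pass. The group of 28 members of 23 genes includes the monoamine carriers of family 6 and the peptide carriers of family 15, and its members chosen by signal were Slc38a2 (271.6, 355.0 and 469.9 at the lowest, median and highest array), Slc3a2 (179.3, 254.6 and 344.9) and Slc7a6 (136.3, 179.3 and 276.7). Slc3a2 is the heavy chain that pairs with the light chains of family 7. One such light chain, Slc7a8, had the widest range of all members (1.87), and it met the signal minimum only through E16 testis, so its differences from E16 testis use the group that made it a member. It read 41.9 and 85.4 in E16 testis and 61 and 18.9 in cultured testis, against 24.6 and 3.5 in E16 ovary and 14.5 or less in the other arrays. The E16 difference of 1.45 did not pass (adjusted p = 0.124 by limma). Of 8 other settings, which ranged from 0.92 to 2.5, it passed only without the 2 arrays of high actin ratio (1.97). The testis difference between E16 and E13 (1.42) also passed only there, with a range of 1.33 to 2.18 over the 8. Fits without 1 array gave 0.92 to 1.97 and 1.02 to 1.83.

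Slc7a5, the large neutral amino acid light chain LAT1, ranged over 1.60, from 20.3 ± 10.0 in E13 ovary to 92.3 ± 8.2 in cultured testis (SD, n = 2). Its replicates at E14 read 62.3 and 22.8 in testis and 89.6 and 32.4 in ovary, a gap as wide as many of the differences between groups. Slc38a1, a sodium-coupled glutamine carrier, had 2 member probe sets that went opposite ways at E16. Probe set 1372921_at read 131.1 and 113.4 in testis and 242.0 and 220.3 in ovary (-0.84, adjusted p = 0.162 by limma), and 1370409_at read 160.9 and 159.7 against 96.2 and 94.2 (0.66, adjusted p = 0.117). The arrays did not overlap in either. The first passed under 2 of 8 other settings and not under 6. With array series as a block it passed at -0.99 (adjusted p = 0.0444).

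Slc6a6, the taurine carrier, has 2 member probe sets, and 1368778_at separated the arrays by series; it was singled out after its values were seen. It read 1.2 to 12.7 on the 6 arrays of series 1 and 18.1 to 63.6 on the other 8. It was the only member with no such overlap (0.719%, against 2.22% of all probe sets). The other, 1374531_at, read 32.4, 64.8 and 116.5 at the lowest, median and highest array.

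**Figure D3:**
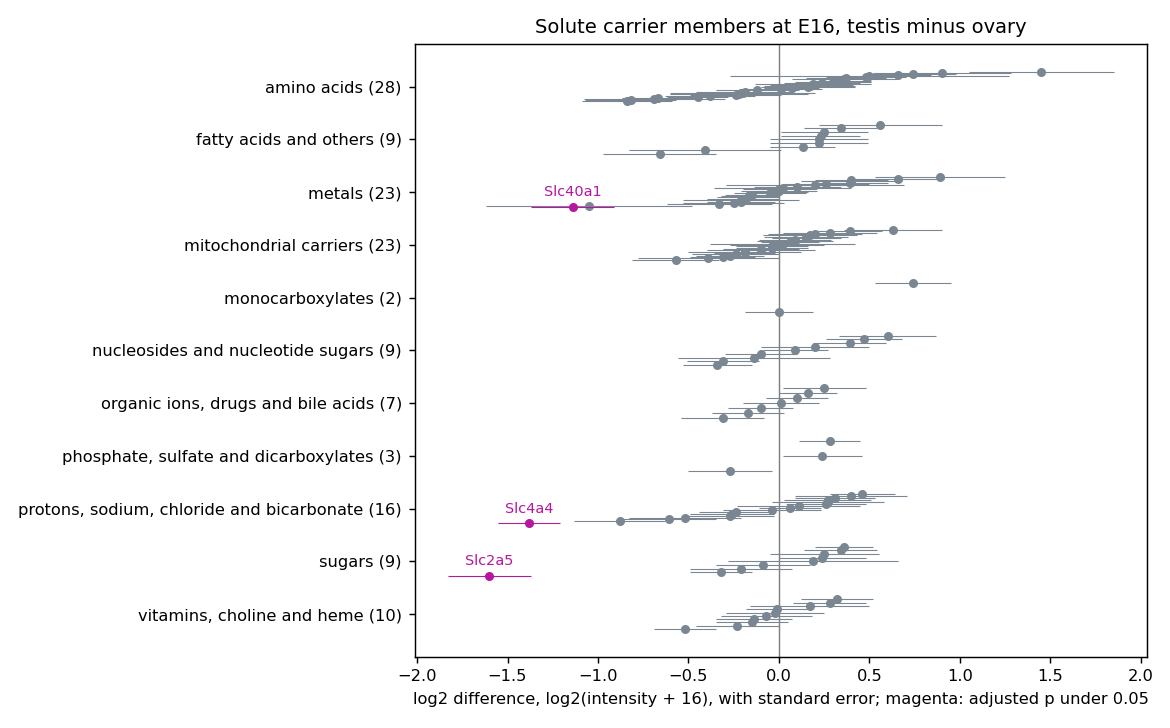
Log2 difference between testis and ovary at E16 for the 139 members, by transporter group (rows, number of members in brackets), with standard errors as horizontal lines. The 3 members in magenta, Slc4a4 (-1.38), Slc2a5 (-1.60) and Slc40a1 (-1.14), passed the test and lie on the ovary side.

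Change with age was compared between E13 and E16 in each sex. In testis no member passed by limma, against 0.945% of all probe sets, and 13 members had an unadjusted p under 0.05 (9.35%, against 10.7%). In ovary 1 member rose (0.719% of the members, against 0.460% of all probe sets in that direction and 0.889% in either) and 21 had an unadjusted p under 0.05 (15.1%, against 10.7%). Without the signal minimum, 0 of 260 passed by limma in testis and 1 in ovary, and 8.46% and 11.5% had an unadjusted p under 0.05. The member was Slc4a4, whose E13 ovary arrays read 50.9 and 50.1 and whose E14 arrays read 65.3 and 56.8. Its rise from E13 to E16 was 1.30 (SE 0.17, adjusted p = 0.00696). In testis its change was -0.23 (adjusted p = 0.725). The difference between the changes in testis and ovary was -1.52 (SE 0.24, adjusted p = 0.0496), the only member to pass that test (0.719%, against 0.145% of all probe sets, and 7.19% against 6.49% at an unadjusted p under 0.05; 7.31% of the 260). The rise in ovary did not pass without either E13 ovary array, without E16 ovary replicate 2, or without the 4 arrays with discordant Xist (1.20). Within array series 3 it was 1.20 by construction, since the same ovary arrays remain as without those 4 arrays. The difference between sexes did not pass without any 1 of the 14 arrays (adjusted p from 0.0548 to 0.237), nor without the Xist (-1.31, adjusted p = 0.476) or actin (-1.62, adjusted p = 0.0691) arrays, nor with an offset of 1 (adjusted p = 0.098).

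The other fresh-gonad carriers were described by level and range alone. Among sugar carriers (9 members, with the vitamin carrier Slc5a6 of family 5 counted here), Slc37a4, the glucose 6-phosphate carrier of the endoplasmic reticulum, read 70.6, 116.1 and 149.2 at the lowest, median and highest array. Slc37a1, a related sugar phosphate carrier, ranged over 1.43 log2, with E16 ovary arrays at 22 and 84.6. The wide replicate gap covers much of that range. Of 2 monocarboxylate members, Slc16a1 (MCT1, a carrier of lactate and pyruvate) read 167.3, 267.0 and 330.2. The nucleotide sugar carrier Slc35a1, which brings CMP-sialic acid into the Golgi, had 3 member probe sets. Probe set 1374662_at read 176.2, 265.2 and 353.5, 1375254_at read 69.0, 117.2 and 185.9, and 1386078_at 25.8, 52 and 76.8. At E16 the first differed by -0.34 and the others by 0.39 and 0.20, and none passed.

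Among ion carriers, Slc12a2 (NKCC1, which brings sodium, potassium and chloride into cells) read 164.8, 245.2 and 333.1, and Slc12a7, a potassium chloride cotransporter, 108.2, 155.1 and 262.3. Slc20a1, a sodium-coupled phosphate carrier, ran from 236.7 through 282.0 to 345.3. Slc22a17, of the organic ion family, ran from 193.9 through 228.6 to 309.6, and Slc22a5, the carnitine carrier OCTN2, from 57.3 through 100.6 to 146.5. The fatty acid carrier Slc27a1 ranged over 1.11 log2, from 140.6 ± 33.4 in E13 testis to 326.6 ± 112.4 in E16 ovary (SD, n = 2). Its E16 ovary arrays, at 406.0 and 247.1, differed by more than the E16 arrays of testis (214.0 and 176.4) did.

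Among carriers of vitamins and related compounds, Slc44a2 and Slc44a1, of the choline carrier family, read 114.2, 192.8 and 249.5 and 113.0, 168.1 and 219.0. The other Slc44a1 members, 1368480_at and 1370935_at, had medians of 58 and 63.3. Slc23a2, a sodium-coupled carrier of vitamin C, read 82.0 and 60.7 in E14 testis and 143.6 and 143.5 in E14 ovary (-0.88, adjusted p = 0.263). The folate carrier Slc46a1 ranged over 0.82, with 56.1 and 57.1 in E16 testis at the top.

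Mitochondrial and metal carriers leaned to 1 side at E14 without any member passing. Of 23 mitochondrial carriers, 3 had a log2 difference above 0 between testis and ovary at E14, and their median was -0.22. The 23 metal carrier probe sets, of 19 genes, had 6 above 0 and the same median. All 139 members had a median of -0.11, with 34.5% above 0, and all 15866 probe sets 0.02, with 53.2% above 0. The last set includes probe sets below the signal minimum, so it is not matched to the members in signal. Whether probe sets of like signal leaned the same way is not given here, so the lean is not shown to be particular to carriers. The 2 E14 ovary arrays correlated at 0.949 over all probe sets, against 0.951 to 0.982 in the other groups, and these medians carry no test.

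Cultured E13 testis was compared with fresh E13 testis to see what changed over 3 days in vitro. A single member rose, Slc26a8 (0.719% of the members, against 1.06% of all probe sets in that direction and 1.39% in either). At an unadjusted p under 0.05 there were 28 members (20.1%, against 12.3%). Against fresh E16 testis 0 members passed by limma, against 0.0945% of all probe sets, and 13 had an unadjusted p under 0.05 (9.35%, against 6.67%). Without the signal minimum, 1 of 260 passed in culture against E13 and 0 against E16 by limma, and the unadjusted shares were 15% and 8.46%.

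Slc26a8 encodes an anion exchanger known from spermatogenic cells. It read 57 and 51.1 in cultured testis and 12.4 and 24.2 in fresh E13 testis, and no array of any other group read under 27.6. The difference was 1.05 (SE 0.23, adjusted p = 0.0497 by limma). It met the signal minimum only in cultured testis (54 ± 4.2) and E16 ovary (54.2 ± 15.2; SD, n = 2), so a high level in the cultured group helped to make it a member. The call was lost in 12 of 14 fits without 1 array, with adjusted p from 0.0573 to 0.263. Only the fits without an E16 ovary array kept it. Without the 4 arrays with discordant Xist the difference was 0.74 (adjusted p = 0.394) and without those of high actin ratio 1.11 (adjusted p = 0.176). It also did not pass with an offset of 1 (1.58, adjusted p = 0.0747), quantile normalization (adjusted p = 0.0531) or array series as a block (adjusted p = 0.088).

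Several further carriers had cultured arrays apart from the fresh ones but missed the threshold. The share of all probe sets with such a separation is not given, so it is not shown to be particular to carriers. Slc4a2, the chloride bicarbonate exchanger AE2, read 269.6 and 346.6 in cultured testis and 138.7 and 124.4 in fresh E13 testis. No fresh array of either sex exceeded 204.1. The difference of 1.13 (SE 0.27, adjusted p = 0.0782 by limma) passed under 3 of 8 other settings and not under 5. With array series as a block it passed at 1.42 (adjusted p = 0.018). Fits without 1 array gave 0.95 to 1.3. Slc39a1, a zinc importer of the plasma membrane, read 418.2 and 347.8 against 196.4 and 223.6 (0.82, SE 0.19, adjusted p = 0.0782), and both cultured arrays lay above all fresh arrays, of which the highest was 333.8.

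Slc7a7, the light chain y+LAT1 that exchanges cationic for neutral amino acids, read 78.2 and 82.3 against 40.3 and 39. The difference of 0.79 (adjusted p = 0.0527 by limma) passed under 5 of 8 other settings, with adjusted p from 0.0309 to 0.0495. It did not pass under the other 3. Fits without 1 array gave 0.76 to 0.82. Slc16a1, the lactate carrier, was lower in culture, at 170.6 and 167.3 against 306.2 and 252.0 in fresh E13 and 286.3 and 281.2 in fresh E16 testis. Its cultured arrays lay below all 12 fresh arrays. The difference was -0.67 from E13 (SE 0.19, adjusted p = 0.138) and -0.70 from E16 (adjusted p = 0.383), so neither passed. Slc25a13, the mitochondrial aspartate glutamate carrier citrin, read 59.7 and 53.6 against 112.6 and 91.1 (-0.69, adjusted p = 0.129).

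By group, 18 of 23 metal carrier probe sets (19 genes) had a difference above 0 in culture, with a median of 0.24. For carriers of vitamins, choline and heme it was 8 of 10 probe sets (8 genes), with a median of 0.30. The other groups are not given here, and these medians carry no test. The median over all members was 0.10, with 59% above 0, and over all probe sets -0.01, with 48.9% above 0. All probe sets again include those below the signal minimum and are not matched to the members in signal. The share among probe sets of like signal is not given here. Markers of several cell types moved with culture. The Leydig list summed to 3324 to 4380 in cultured and 125 to 174 in fresh E13 testis, and the Sertoli list to 2662 to 3400 and 449 to 572. The 2 measured adrenal markers of 4, Cyp11b1 and Cyp21a1, summed to 332 to 488 in cultured testis, 30 to 50 in fresh E13 testis and at most 40 in every other group. The 6 neuron and chromaffin markers summed to 254 to 377 against 160 to 163, and the 8 macrophage markers to 493 to 633 against 359 to 410. Endothelial markers summed to 342 to 385 against 448 to 480, and the 6 measured mesonephros and kidney markers to 172 to 175 against 208 to 251. The red cell sums of the cultured arrays, 1045 and 9256, lay on either side of the fresh ones (6540 to 8424), and the ovary list (221 to 342 against 221 to 262) and Kit (15 to 52 against 13 to 45) overlapped. Their part in the differences of culture was not tested.

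**Figure D4:**
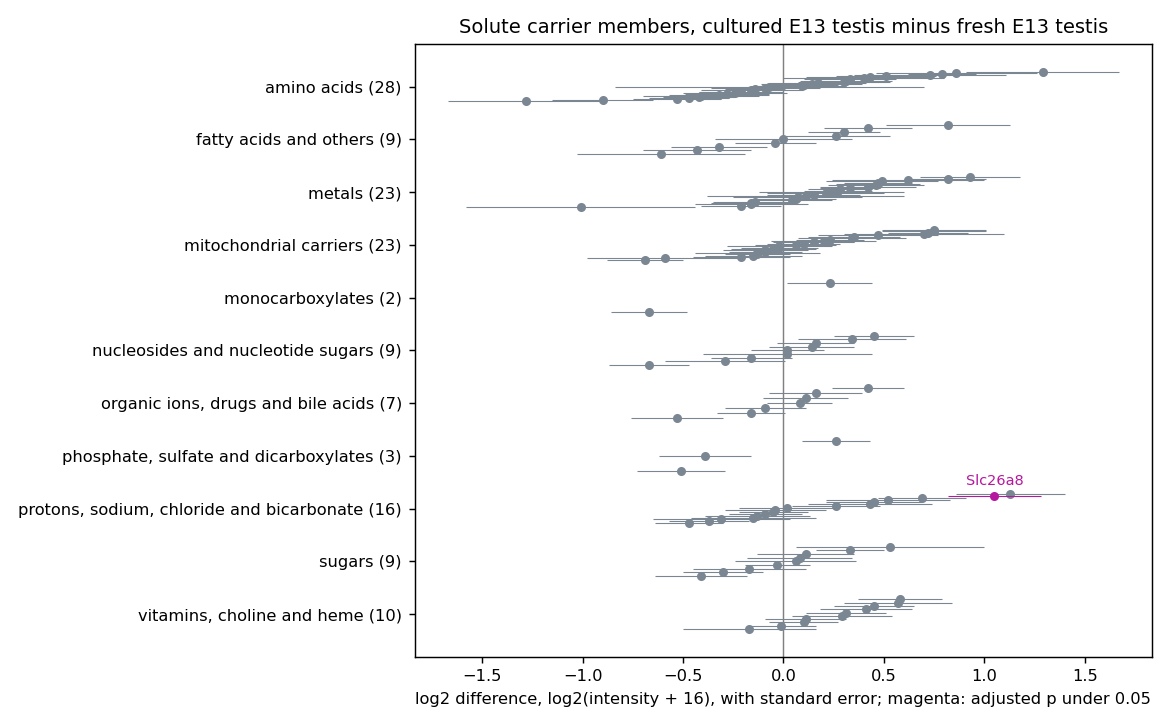
Log2 difference between cultured and fresh E13 testis for the 139 members, by transporter group (rows, number of members in brackets), with standard errors as horizontal lines. Slc26a8 (1.05, magenta) passed the test, and 18 of the 23 metal carrier probe sets (19 genes) lie above 0, a share that carries no test.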

How the data were processed

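The authors deposited 1 table of linear intensities, 1 value per probe set for each of 14 arrays. Per the labels' protocols, pooled gonads were extracted with Trizol and labelled by standard Affymetrix procedures; the sources used here name no summarising software. The deposited intensities had a 2% trimmed mean of 125 on every array. Leaving out 57 controls gave 15866 probe sets, of which 12783 had 1 symbol in the platform annotation. RefSeq (GRCr8) changed 0 of the 260 solute carrier symbols.

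Intensities were taken as log2(intensity + 16). One limma model (version 3.58.1, R 4.3.3; lmFit and eBayes) held 7 group means over the 14 arrays and left 7 residual degrees of freedom, with Benjamini-Hochberg adjustment in each of 9 comparisons. With 2 pools a group, precision is limited by the number of arrays. The procedure was run on simulated data with independent noise around 1 mean per probe set. Those data held no array series, discordant Xist or differences in actin ratio, so the run cannot speak to calls that depend on them. Alternatives were 8 settings and 14 fits without 1 array; in the latter the lone array left is assumed to vary like the other groups. Promoters were searched with exact strings.

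The members, transporter groups and marker lists were chosen with earlier results of these data known. Named were members that passed, the 3 members of strongest signal and the 2 of widest range in each transporter group, the neighbours of the signal minimum, and up to 3 called probe sets of other transporter lists. Further members named for their arrays in culture or for opposed probe sets were chosen after their values were seen. A gene with several members is given by the probe set of strongest signal, and by others where one passed and another did not.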

Additional observations from a re-analysis of the deposited data

Results flagged for a closer look

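The change of Slc4a4 with age differed between the sexes by the test of the difference itself. From E13 to E16 the testis arrays went from 63.5 and 51.9 to 44.4 and 49.4, and the ovary arrays from 50.9 and 50.1 to 136.4 and 158.9. The interaction was -1.52 log2 (SE 0.24, adjusted p = 0.0496 by limma with Benjamini-Hochberg adjustment). The adjusted p was above the threshold in all 14 fits without 1 array, from 0.0548 to 0.237, and the direction was kept in each.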

How the results depend on the processing

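Counts of members that passed, by limma, moved by over 1.5 times as follows. At E16, 3 members passed in the sex comparison, 5 with array batch as a random block and 0 without the 4 arrays with discordant Xist (24 at an unadjusted p under 0.05). The mean over ages had 4, against 2 with an offset of 1, 2 with array series as a block and 0 without those 4 arrays (37 unadjusted). In ovary, the 1 that rose with age became 2 with array series as a block and 0 without those 4 arrays (17 unadjusted). The 1 of the interaction became 0 with an offset of 1 (8 unadjusted), without those 4 arrays (10) and without the 2 arrays of high actin ratio (15). In testis the 0 with age became 1, Slc7a8, without those 2 arrays; E16 testis is the group that made it a member. The 1 in culture became 2 with quantile normalization, 3 among probe sets of at least 50, 5 with array series as a block and 2 with array batch, while it became 0 with an offset of 1 (21 unadjusted), without the 4 arrays (18) and without the 2 arrays (20). The 5 with series as a block did not include Slc26a8.

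Leaving out 1 array gave 1 to 3 members at E16 (1 without either E16 testis array), 1 to 9 for the mean over ages, 0 to 1 in ovary, 0 for the interaction and 0 to 1 in culture; the other counts stayed at 0 there. For the mean over ages, the 9 came without E14 ovary replicate 2. A count of 2 came without E14 testis replicate 1, E14 ovary replicate 1 or E16 ovary replicate 1, and 1 without replicate 2 of E13, E14 or E16 testis or either E13 ovary array.

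Replicate numbers were not taken to pair the samples, since the labels give them no shared origin and not every pair of groups had deviations correlated over 0.1: 15 of 21 did, none lay below -0.1, and the range was -0.05 to 0.53. With the number as a block, 7 members passed for the mean over ages, 2 in ovary and 2 in culture. Shares of all probe sets are not given for any of these alternative fits. Whether a moved count is particular to the members was not tested.

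None of the 60 member differences recomputed (those with an unadjusted p under 0.01) changed sign, nor did 15 others: called probe sets that were no members and second probe sets of Slc40a1 and Slc7a1. The fit restricted to probe sets of at least 50 leaves out Slc30a1, Slc15a1 and Abcc9. Of 220 alternatives for the member differences that passed, 131 kept the call and 89 lost it. For the 13 calls of probe sets that were no members, 178 of 282 alternatives kept the call and 104 lost it. What low signal limits was not measured. The cause of each move was not tested.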

Other observations

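Transporters outside the solute carrier symbols were counted over the same comparisons, without a signal minimum. Of all probe sets, 1.74% passed by limma between the sexes at E16, 0.945% with age in testis and 0.889% with age in ovary. In culture against fresh E13 testis 1.39% passed, all in either direction. Whether the lists below differ from these shares was not tested. Of 19 probe sets of the organic anion carriers (Slco, 12 genes), Slco1a5 was lower in testis at E16 (39.2 ± 9.2 against 124.0 ± 38, SD, n = 2; log2 -1.33, SE 0.21, adjusted p = 0.00866 by limma with Benjamini-Hochberg adjustment). It rose in ovary from 39.2 ± 2.6 at E13 to 124.0 ± 38 at E16 (1.32, adjusted p = 0.0161). Slco3a1 rose in testis from 17 ± 9.8 at E13 to 52.9 at E16 (1.09, adjusted p = 0.0435) and stood at 49.8 ± 8.1 in culture (1.02, adjusted p = 0.0477). Without the 4 arrays with discordant Xist none of these calls passed (adjusted p from 0.145 to 0.442). Slco1a5 at E16 also lost its call without E16 testis replicate 1 or E16 ovary replicate 2, and its rise without either E13 ovary array or E16 ovary replicate 2. Both Slco3a1 calls were lost without any array other than E13 testis replicate 2.

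Of 31 probe sets of ABC transporters, 2 rose in culture, where 1.06% of all probe sets passed in that direction. Abcg1, a cholesterol exporter, stood at 165.9 ± 1.3 in cultured and 53.4 ± 11 in fresh E13 testis (1.40, adjusted p = 0.00628 by limma), and Abcc9 at 37.3 ± 10.0 and 5.2 ± 4.7 (1.33, adjusted p = 0.0313). Aqp1, 1 of 12 aquaporin probe sets, rose in culture from 7.9 ± 6.4 to 97.6 ± 28.1 (2.25, adjusted p = 0.0008) and in testis to 47.9 ± 0.8 at E16 (1.44, adjusted p = 0.0114). The sodium pump subunit Atp1b1, 1 of 6 sodium pump probe sets, rose in ovary from 164.7 ± 14 to 406.0 ± 90.7 (1.21, adjusted p = 0.0464). Without the 4 arrays with discordant Xist none of these 5 differences passed (adjusted p from 0.0667 to 0.31). The Aqp1 rise in culture kept its call in all 14 fits without 1 array. Its rise in testis was lost without E13 testis replicate 1 or either E16 testis array, and that of Abcg1 without cultured testis replicate 2 or E13 testis replicate 1. Abcc9 lost its call without any array of cultured, E13 or E14 testis or E13 ovary, and Atp1b1 without any array outside E14 ovary.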
